A study of Mus musculus with 2 samples.

Results

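Peak-dense blocks are stretches of the kidney genome in which enriched sites of 5-hydroxymethylcytosine (5hmC) crowd together. They were chosen as the fixed 100 kb bins of chromosomes 1 to 19 that held 20 or more midpoints of peaks in the list the authors deposited. Of 24731 such bins, 895 met this rule (3.62%, or 3.82% of the 23419 bins with at least 50 input fragments, called mapped bins below). These blocks span 89.5 Mb and hold 21981 of the 92319 autosomal peaks (23.8%). The DNA came from flash-frozen kidneys of male C57BL/6 mice, an inbred laboratory strain, at 6 weeks of age. In the hMeDIP library (11424027 fragments) DNA was enriched with an Active Motif antibody against 5hmC, and the input library (8316507 fragments) was made with no antibody. There was 1 library of each kind, the number of animals behind them is not in the labels, and no transcript was measured that could check the tissue.

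5hmC is made from 5-methylcytosine by TET enzymes, which oxidize the methyl group. It is an intermediate of active DNA demethylation, and it also persists as a mark in non-dividing cells. In differentiated tissues it is known to lie mainly over the bodies of expressed genes and at enhancers, and to be scarce in silent sequence. Kidney is a mixture of tubular, glomerular, vascular and interstitial cells, so a higher level in whole tissue can mean more cells with the mark or more of the mark per cell, which cannot be told apart here.

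The measure of 5hmC used throughout is a ratio, the share of all hMeDIP fragments that fall in a stretch of sequence over the share of all input fragments that fall in the same stretch. A ratio of 1 is the mean of the mapped genome, which does not correspond to any set quantity of the mark. Each ratio is followed by an exact 95% interval that covers counting error only, since sequenced fragments are not independent molecules and nothing was replicated. The blocks were chosen by the peak list deposited with the hMeDIP library, so a high ratio in them cannot be separated from the choice. The ratios below are therefore a description of these libraries, without a test. All coordinates are 1-based on mm9. Genes in the blocks were not analysed here.

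The blocks are the upper tail of a smooth distribution. The median bin held 1 peak midpoint, and 11601 bins (46.9%) held 0. Within the blocks the number ran from 20 to 42, with a median of 24 and quartiles of 21 and 27. No step in the distribution marks the limit of 20. There were 157 bins with 19 midpoints and 133 with 20. The bins with 19 had a median covered share of 26.8% and a ratio outside peaks of 1.52 (1.51 to 1.54), and the bins with 20 had 29.9% and 1.48 (1.46 to 1.50). The bins just below the limit are thus much like those just above it.

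**Figure D1:**
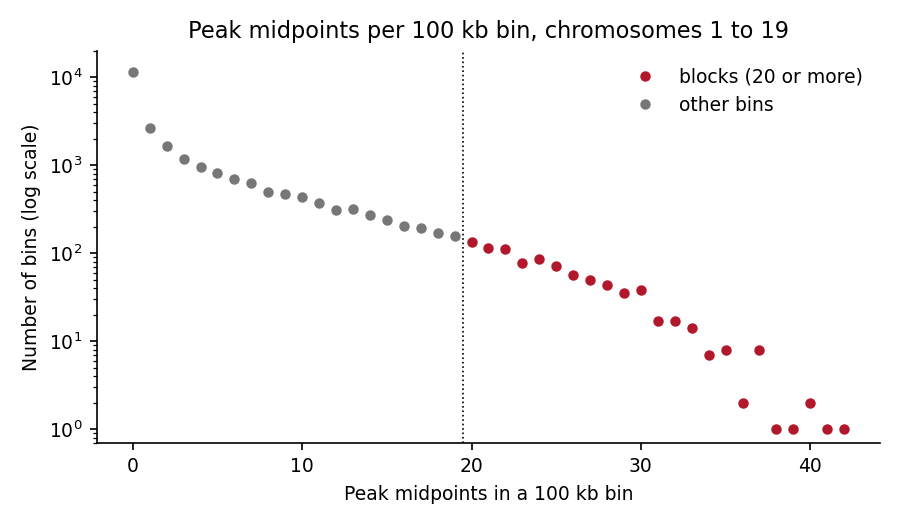
Number of 100 kb bins of chromosomes 1 to 19 (log scale) with each number of peak midpoints, blocks in red and other bins in grey, with the limit as a dotted line. The count falls from 11601 bins with 0 midpoints to 1 bin with 42, with no step at the limit.

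The count of 20 also depends on where the peak caller ended one peak and began the next. Within blocks 48.1% of the gaps between peaks were 1 kb or shorter, and 2115 of the 21086 were shorter than 100 bp. When peaks separated by 1 kb or less were joined, the 21981 peaks of the blocks became 11677, the median block held 13 joined peaks, and only 4 autosomal bins still reached 20. Ranked by joined peaks instead, the top 895 bins included 561 of the blocks (62.7%). Ranked by covered share, they included 748 (83.6%). Membership thus overlapped more with a ranking by covered share than with one by joined peaks. A grid shifted by 50 kb gave 900 blocks, and 744 of the original blocks (83.1%) overlapped one of them.

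Every autosome carried blocks, but not in equal density. Chromosome 19 had the highest share of its mapped bins in blocks (7.17%, 41 of 572), followed by chromosome 17 (6.56%, 59 of 900) and chromosome 11 (5.81%, 69 of 1188). Chromosome 1 had the lowest share (2.04%, 39 of 1911), next to chromosome 3 (2.06%, 32 of 1551). The median chromosome stood at 3.49%. On chromosome 17 the blocks held 31.6% of the peaks of the chromosome, and on chromosome 1 they held 16.9%. Once a bin was a block, the chromosome made less difference. Over the 19 chromosomes the median covered share ran from 33.2% to 40.3%, and the ratio outside peaks from 1.49 to 1.69.

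Along the chromosomes the blocks leaned toward the end far from the centromere, which in mouse autosomes lies at the start of the sequence. When each chromosome was divided into 10 parts of equal length, the part nearest the start held 33 blocks (1.87% of its mapped bins), and the part at the far end held 239 (9.90%). The far part thus carried 26.7% of all blocks. Peaks as a whole leaned the same way, so the lean was not particular to blocks. Over all bins the mean was 1.65 midpoints per bin in the part nearest the start and 6.88 in the far part. The last 5 Mb of the chromosomes were less rich than the stretch before them, with 65 blocks in 940 mapped bins (6.91%), against 186 blocks in 1856 mapped bins of the last 10 Mb. The first 5 Mb, next to the centromere, held 6 blocks in 345 mapped bins (1.74%).

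Blocks tended to lie beside other blocks. Adjacent blocks joined into 619 runs. Of these, 431 were a single block, 129 were 2 blocks long, 38 were 3 blocks long, 14 were 4, 6 were 5 and 1 was 6. In all, 464 blocks (51.8%) touched another block, whereas 1640 of all 24731 bins had a block beside them. Another block lay within 1 Mb of 731 blocks (81.7%). The share of all bins with a block within 1 Mb was not counted, so this value has no background. The most remote block lay 21.7 Mb from the nearest other one. Blocks in longer runs were slightly denser. The median covered share was 35.5% in single blocks, 39.2% in pairs and 41.7% in runs of 3 or more, and the ratio outside peaks was 1.55 (1.54 to 1.56), 1.60 (1.58 to 1.62) and 1.65 (1.63 to 1.67).

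The longest run covered 600 kb of chromosome 2, from 165600001 to 166200000. Its 156 peaks covered 42.8% of the sequence, and its ratio was 5.77 (5.38 to 6.19) inside peaks and 1.69 (1.58 to 1.81) outside. There were 6 runs of 5 blocks, or 500 kb, of which those with the most peaks are given here. The first was chromosome 4, 137200001 to 137700000, with 143 peaks and a ratio outside peaks of 1.86 (1.71 to 2.01). Another run on chromosome 4, 140800001 to 141300000, and one on chromosome 19, 56900001 to 57400000, both held 139 peaks. The other 3 held 118 to 136. In the 2 runs with 139 peaks the ratios outside peaks were 1.74 (1.60 to 1.89) and 1.54 (1.43 to 1.64). Their ratios inside peaks were 6.66 (6.19 to 7.18) and 5.40 (5.01 to 5.82), so the intervals of these 2 runs overlapped outside peaks and did not overlap inside them.

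The broad high domains of the genome were only partly made of blocks. A bin was called high when its ratio exceeded the genome mean by more than 0.5 on the log2 scale with its interval above the mean. All 895 blocks were high, against 22.9% of the mapped bins, a count that the choice of the blocks fixes. The longest domain of adjacent high bins, chromosome 17 from 27000001 to 30800000, held 13 blocks among its 38 bins. The next, on chromosome 11 from 115000001, held 15 of 34, and the one after it, on chromosome 2 from 165000001, held 14 of 32. The 80 domains of 1 Mb or more contained 315 blocks, which is 35.2% of all blocks and 26.4% of the bins in those domains. For comparison, these domains held 1191 of the 5360 high bins, and the 895 blocks were part of the same 5360. The other blocks lay in shorter domains.

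Peaks covered 36.0 Mb of the 89.5 Mb in blocks, or 40.2%, against 14.8% of the bins next to blocks and 3.16% of all other bins. Over all 895 blocks the covered share ran from 21.8% to 92.1%, with a median of 37.8% and quartiles of 31.8% and 46.6%. It was related to the number of midpoints (Spearman's rho 0.74 over 895 blocks, given as a description, since both come from the same peaks). Coverage was spread through most blocks. When each block was divided into 10 steps of 10 kb, 432 blocks (48.3%) had a peak midpoint in every step, 283 in 9 and 143 in 8, and 37 blocks in fewer than 8, with a minimum of 6. The longest stretch without a peak had a median of 12459 bp per block and reached 50833 bp in the block with the largest one, chromosome 11, 88400001 to 88500000, which was singled out after the values were seen.

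The peaks inside blocks were wider than those elsewhere. Their median width was 1341 bp, with quartiles of 989 and 1942 bp, against 1106 bp (851 to 1448 bp) for the other 70338 autosomal peaks. In the authors' deposited list the median score was 109.51 for peaks in blocks and 81.1 for the rest. Broad peaks were concentrated there. Of 561 autosomal peaks of 5 kb or more, 344 (61.3%) had their midpoint in a block, although blocks held only 23.8% of all peaks. The median gap between peaks of the same bin was 1076 bp in blocks and 3761 bp elsewhere.

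Input fragments did not mark out the peaks. In blocks the input density was 3.64 fragments per kb inside peaks and 3.65 outside, while hMeDIP density was 27.7 per kb inside and 7.93 outside. Blocks were close to the genome in input as well. The median block held 366 input fragments, with quartiles of 337.5 and 391.5, against 355 in the median bin, or 1.03 times as many. The mapped bins were divided into 5 classes of equal size by input. Blocks made up 4.38%, 4.61%, 5.10% and 4.06% of the classes from the second lowest to the highest input. In the class with the least input, 50 to 303 fragments per bin, they were 0.961% (0.702 to 1.28, exact binomial interval). Number of midpoints and input were unrelated among blocks (rho -0.0025). The part that input depth plays in the low share of the lowest class was not tested.

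Blocks held 12.4% of all hMeDIP fragments and 3.92% of all input fragments, a ratio of 3.17 (3.16 to 3.19). Within blocks, 70.2% of the hMeDIP fragments lay in peaks, against 40.2% of the input fragments, the same as the covered share of the sequence. Inside peaks the ratio over all blocks was 5.54 (5.51 to 5.57), and outside peaks it was 1.58 (1.58 to 1.59). In each of the 895 blocks the interval inside peaks lay wholly above the interval outside them, which is what the calling of peaks selects for. The ratio inside was 3.40 times the ratio outside in the median block, with quartiles of 3.06 and 3.87.

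Outside their peaks the blocks stood further above the rest of the genome than inside them. Inside peaks the ratio was 5.54 in blocks, 5.29 (5.24 to 5.33) in the 1176 bins next to a block and 5.13 (5.11 to 5.16) in all other bins. These values hold only sequence that had passed the threshold of the caller. Outside peaks it was 1.58 in blocks, 1.28 (1.28 to 1.29) in the bins next to them and 0.716 (0.716 to 0.717) in all others. Of 892 blocks with at least 50 input fragments outside peaks, 745 (83.5%) were high by that measure too, against 9.13% of the 23415 bins with such input. The peak list was deposited with this hMeDIP library, and whether the peaks were called on it alone is not known, so this count cannot be taken as independent of the choice.

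A finer division by number of midpoints gave the same picture over the whole range. The ratio outside peaks was 0.422 (0.422 to 0.423) in bins with 0 midpoints, 0.803 (0.802 to 0.805) in those with 1 to 4, 1.14 (1.14 to 1.15) with 5 to 9, 1.33 (1.32 to 1.33) with 10 to 14 and 1.46 (1.46 to 1.47) with 15 to 19. Among blocks it was 1.54 (1.53 to 1.55) with 20 to 24 midpoints, 1.64 (1.62 to 1.66) with 25 to 29 and 1.70 (1.67 to 1.73) with 30 to 42. The ratio inside peaks moved far less, from 5.07 (5.02 to 5.12) with 1 to 4 midpoints to 5.66 (5.59 to 5.74) with 30 to 42. Most of the rise outside peaks came before the limit of 20, and blocks continued it.

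**Figure D2:**
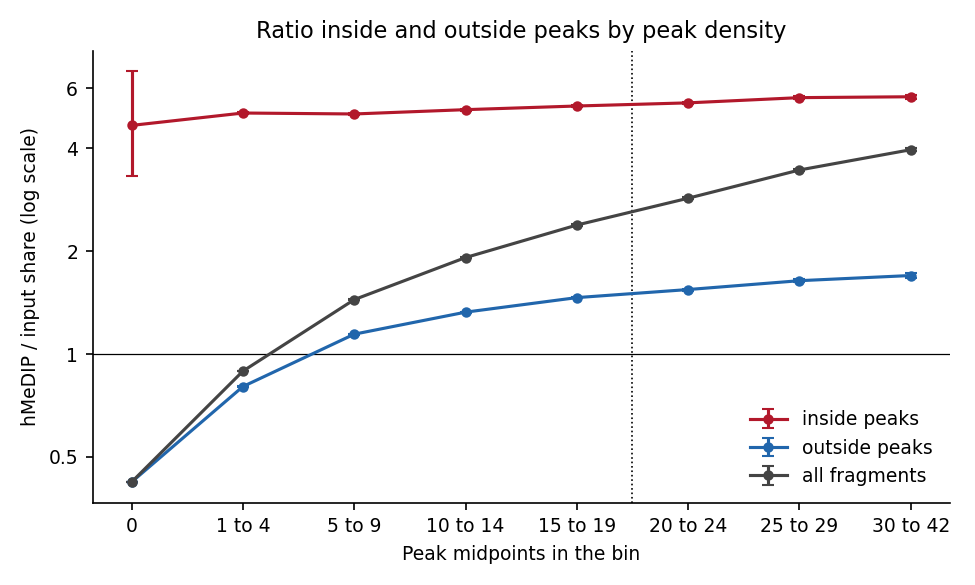
Ratio of hMeDIP to input fragment shares (log scale) by number of peak midpoints in the bin, for fragments inside peaks, outside peaks and all together, with 95% counting intervals and a dotted line at the limit for blocks. The line outside peaks climbs from 0.422 to 1.70, while the line inside peaks stays between 4.67 and 5.66.

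Blocks have little sequence far from a peak, and the ratio outside peaks falls with distance from one. At equal distance from the nearest peak edge the blocks were still higher. At 500 to 1000 bp from an edge the ratio was 1.86 (1.84 to 1.88) in blocks, 1.66 (1.65 to 1.68) in bins with 10 to 19 peaks and 1.33 (1.32 to 1.34) in bins with 1 to 9 peaks. At 5000 to 10000 bp it was 1.39 (1.36 to 1.41), 1.26 (1.25 to 1.27) and 0.975 (0.972 to 0.979). In the first 500 bp beside a peak it was lower than in the next 500 bp in all 3 kinds of bin, at 1.39 (1.38 to 1.41) in blocks.

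**Figure D3:**
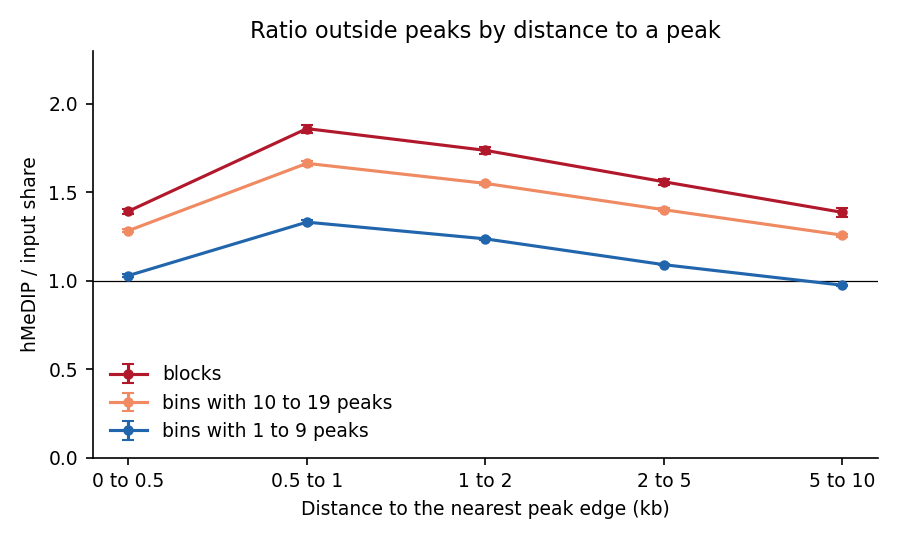
Ratio of hMeDIP to input fragment shares outside peaks by distance from the nearest peak edge, in blocks, in bins with 10 to 19 peaks and in bins with 1 to 9 peaks, with 95% counting intervals. The blocks lie highest at each distance, from 1.86 at 0.5 to 1 kb down to 1.39 at 5 to 10 kb.

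The gaps between peaks followed the same order, except for the shortest. Gaps of 2000 to 5000 bp had a ratio of 1.73 (1.72 to 1.75) in blocks and 1.53 (1.52 to 1.54) elsewhere. Gaps of 10 to 20 kb, placed by their midpoint, had 1.49 (1.48 to 1.51) in the 764 that lay in blocks and 1.28 (1.27 to 1.28) in the 9727 elsewhere. Gaps shorter than 500 bp had a ratio below the genome mean, 0.627 (0.601 to 0.654) in blocks and 0.612 (0.590 to 0.636) elsewhere. Placing fragments by a length of 150 bp instead of the deposited 350 bp gave 0.665 (0.637 to 0.693) for these short gaps in blocks. They rest on 4077 hMeDIP and 4734 input fragments in 7082 gaps. Why these gaps were low was not tested.

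At equal width the peaks in blocks still had slightly higher ratios than the rest. Among peaks of 1000 to 1500 bp the ratio was 5.24 (5.18 to 5.30) in blocks and 4.96 (4.93 to 4.99) elsewhere. Among peaks of 2000 to 5000 bp it was 5.60 (5.55 to 5.65) against 5.09 (5.05 to 5.13), and among those of 5 kb or more it was 6.51 (6.37 to 6.66) against 5.99 (5.83 to 6.16). In the narrowest peaks, under 1000 bp, the values were 5.98 (5.87 to 6.09) and 5.80 (5.75 to 5.85).

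Individual blocks varied within a limited range. The ratio inside peaks ran from 3.80 to 9.69, with a median of 5.44 and quartiles of 5.00 and 6.00. The ratio outside peaks ran from 0.956 to 2.38, with a median of 1.59 and quartiles of 1.48 and 1.73. Its interval lay above 1 in 880 blocks, spanned 1 in 15 and lay below 1 in 0. Over all mapped bins the ratio outside peaks had a median of 0.704 and an upper quartile of 1.10. The share of all bins with an interval above 1 was not counted. The blocks were chosen by peaks deposited with this library, so the count cannot be separated from the choice. Covered share and the ratio outside peaks were weakly related among blocks (rho 0.30, over 895 blocks that share both libraries), and so were the ratios inside and outside peaks (rho 0.12).

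**Figure D4:**
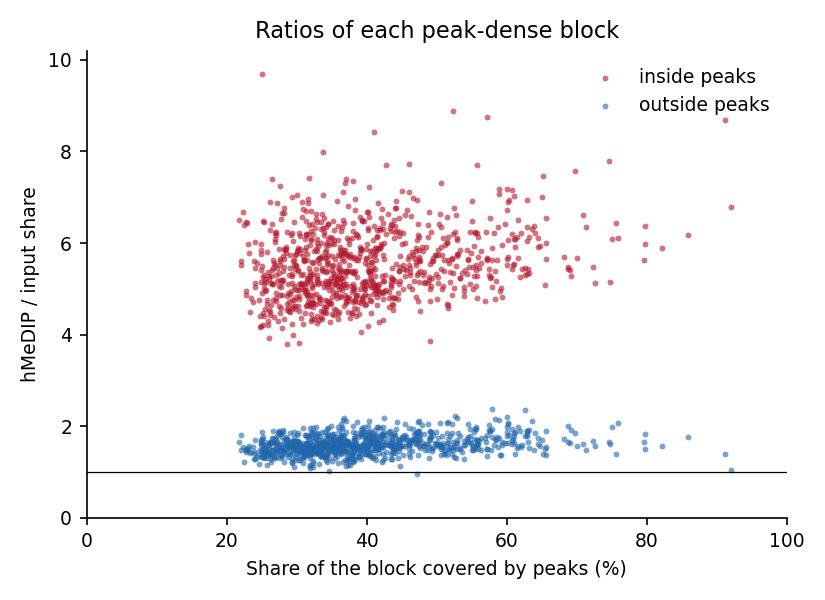
Ratio of hMeDIP to input fragment shares inside and outside peaks for each of the 895 blocks against the share of the block that peaks cover. The values inside peaks lie between 3.80 and 9.69 and those outside between 0.956 and 2.38, at all covered shares from 21.8% to 92.1%.

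The block with the most peaks was chromosome 14, 26300001 to 26400000, with 42 midpoints and a covered share of 69.2%. It held 2275 hMeDIP and 373 input fragments, with a ratio of 5.29 (4.67 to 6.02) inside peaks and 1.91 (1.50 to 2.45) outside. Its neighbours held 16 and 26 midpoints. Second was chromosome 3, 27500001 to 27600000, with 41 midpoints, on a chromosome otherwise poor in blocks. Peaks covered 72.7% of it, and its ratio outside them was 1.57 (1.23 to 2.02).

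Next came 2 blocks with 40 midpoints. Chromosome 7, 140200001 to 140300000, stood alone, with 8 and 9 midpoints in the bins beside it and 74.8% of its sequence covered. Chromosome 10, 70400001 to 70500000, belonged to a run of 3 and had a lower covered share (51.6%). Its median peak was 1161.5 bp wide, against 1357 bp in the chromosome 7 block. The block with 39 midpoints, chromosome 4, 137200001 to 137300000, opened the run of 143 peaks described above, and the one with 38 was chromosome 5, 119000001 to 119100000.

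Blocks with 37 midpoints came next. There were 8 of them, of which the 4 with the highest covered share completed the first 10, on chromosome 17 from 5000001, chromosome 7 from 75200001, chromosome 9 from 71500001 and chromosome 8 from 122900001. Their ratios outside peaks were 1.99 (1.55 to 2.59), 1.57 (1.27 to 1.94), 1.99 (1.58 to 2.53) and 1.98 (1.61 to 2.45). These intervals overlap widely. Each of the first 10 blocks had a peak midpoint in all 10 of its 10 kb steps.

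The highest covered share was not found in the blocks with the most peaks. Chromosome 15, 58800001 to 58900000, had 92.1% of its sequence in only 23 peaks with a median width of 2778 bp, and its longest stretch without a peak was 921 bp. Chromosome 8, 119800001 to 119900000, which has the highest ratio of all bins, had 91.2% in 26 peaks, and 98.4% of its hMeDIP fragments lay in them. It was followed by chromosome 8, 34900001 to 35000000, with 85.8% in 28 peaks. So little sequence was left outside peaks in the chromosome 15 block that its ratio there, 1.04 (0.595 to 1.86), rests on 33 hMeDIP and 23 input fragments.

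The lowest covered shares were found in blocks with few and narrow peaks for a block. On chromosome 11, 106500001 to 106600000, 21 peaks with a median width of 895 bp covered 21.8%, and the widest was 1601 bp. Chromosome 5, 134600001 to 134700000, had 22.0% in 20 peaks beside a bin with 35 midpoints. Chromosome 7, 25200001 to 25300000, had 22.0% in 22 peaks. Their ratios outside peaks were 1.65 (1.43 to 1.92), 1.48 (1.27 to 1.72) and 1.80 (1.56 to 2.09). All blocks had a median of 1.59 with quartiles of 1.48 and 1.73, so the second value lay near the lower quartile.

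Outside peaks the highest ratios were 2.38 (1.94 to 2.95) on chromosome 4, 140100001 to 140200000, 2.36 (1.94 to 2.88) on chromosome 1, 191600001 to 191700000, and 2.23 (1.81 to 2.78) on chromosome 8, 125000001 to 125100000. These blocks held 30, 30 and 28 midpoints, and the intervals of all 3 overlapped. At the low end, next to the chromosome 15 block described above, stood chromosome 13, 46000001 to 46100000, with 0.956 (0.803 to 1.14). The block on chromosome 1, 132900001 to 133000000, had 1.03 (0.874 to 1.20). Both were clustered rather than even. The first had a stretch of 27855 bp without a peak, and the second had 42534 bp without one and midpoints in only 6 of its 10 steps. Inside their peaks they were ordinary, at 5.31 (4.55 to 6.23) and 5.95 (4.94 to 7.23).

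Bins beside blocks were intermediate. Their median was 11 midpoints, with quartiles of 6 and 15, and 332 of the 1176 (28.2%) held 15 to 19, a class that makes up 3.87% of all bins. Only 17 (1.45%) held 0, against 46.9% of all bins. Farther away the number fell quickly at first and then slowly. A bin at 100 kb from a block was itself a block in 30.8% of cases, at 200 kb in 16.8%, at 500 kb in 11.5%, at 1000 kb in 8.60% and at 2000 kb in 8.76%, against 3.62% of all bins. Among neighbours that were not blocks, the ratio outside peaks was 1.28 (1.28 to 1.29) at 100 kb, 1.05 (1.05 to 1.06) at 500 kb, 0.955 (0.951 to 0.958) at 1000 kb and 0.907 (0.904 to 0.910) at 2000 kb. It thus stayed above the value of all bins, 0.765 (0.765 to 0.766), over the whole 2000 kb examined, while their ratio inside peaks stayed between 5.19 and 5.33. Distance was counted from every block and not from the nearest, so a bin at 2000 kb from a given block could lie beside another. The values therefore do not show how far the surroundings of a single block reach.

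**Figure D5:**
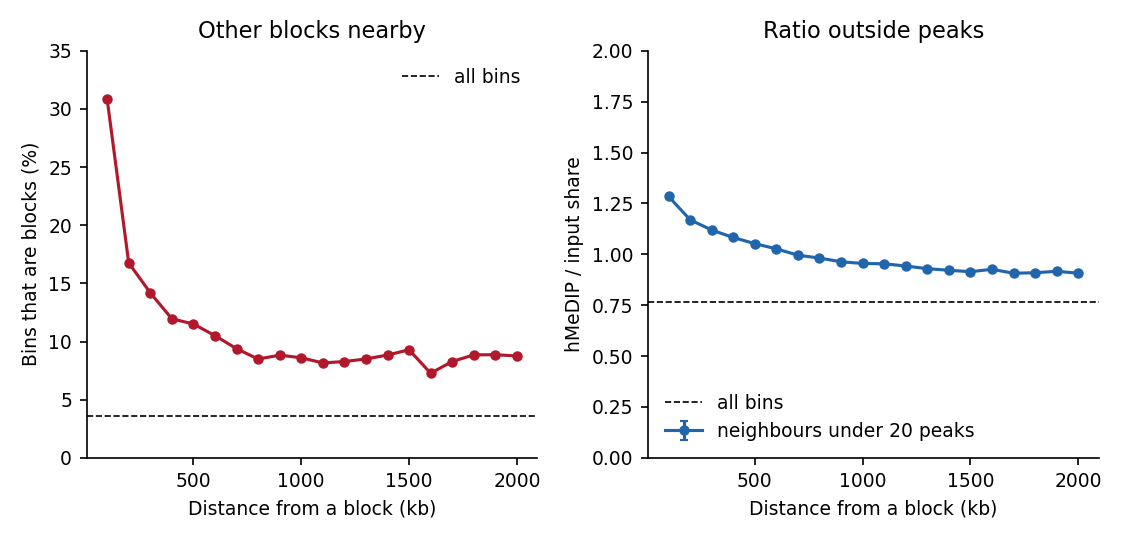
Left, share of bins that are themselves blocks at each distance from a block, and right, ratio of hMeDIP to input fragment shares outside peaks in neighbours with fewer than 20 midpoints, with 95% counting intervals, over distances of 100 to 2000 kb. Dashed lines give all bins of chromosomes 1 to 19 (3.62% and 0.765), and both curves stay above them. Distance is from every block, not from the nearest.

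Averaged over the outer edges of all runs, values changed gradually in steps of 10 kb. These edges are grid lines at multiples of 100 kb, and a change in 5hmC can lie anywhere near them. The average therefore cannot show whether single borders were sharp or gradual. In the last 10 kb step inside a run there were 2.03 midpoints per step, in the first step outside 1.56, and at 90 to 100 kb outside 0.838, against 0.373 in the mean step of all bins. The ratio outside peaks went from 1.49 (1.47 to 1.51) in the last step inside to 1.42 (1.40 to 1.44) in the first step outside and 1.20 (1.18 to 1.21) at 90 to 100 kb. Inside peaks it was 5.44 (5.34 to 5.54), 5.35 (5.24 to 5.46) and 5.44 (5.28 to 5.60) at the same places. The drop in midpoints at the border is set partly by the limit of 20, which the inner steps had to meet and the outer steps had to miss.

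Some bins were as densely covered as blocks without counting as such. There were 727 bins with fewer than 20 midpoints whose covered share was at least that of the block with the lowest one, 21.8%, and 25 whose covered share reached the median of the blocks, with a median of 18 midpoints. The 3 highest were chromosome 11, 19800001 to 19900000 (56.1%, 19 midpoints), chromosome 2, 173000001 to 173100000 (51.4%, 19) and chromosome 12, 109400001 to 109500000 (51.3%, 17). The last had a ratio inside peaks of 9.39 (7.90 to 11.2), near the top of the range of blocks. Of the 100 bins with the highest ratio of all fragments, 94 were blocks, and of the 895 highest, 686 were. Blocks made up 3.82% of the mapped bins. These counts cannot be separated from the choice of the blocks, which used peaks deposited with the same library.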

How the data were processed

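Each library had 1 file of mapped positions. Per the submitters' processing notes, CASAVA and Bowtie 1.0.0 were used with build mm9; read filtering is not given in the sources used here. In the deposited position files each line gives a 350 bp stretch, a strand and a count of reads, and a line was read here, from its values, as 1 fragment. MACS called the peaks, per the file headers. Its version, control library and threshold are not given, and the track name carries a numbered range after hMeDIP whose meaning is not stated. The score in the authors' peak list starts at 50 and is used only to describe and filter peaks.

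Peaks and fragments were placed by their midpoints in bins starting at multiples of 100 kb, up to the highest coordinate in the files. Ratios carry exact conditional binomial (Clopper-Pearson) 95% intervals. With 1 library per group no test between conditions was possible. Median depth was 355 input fragments per bin with at least 50. The calculation was tested on simulated counts (Python 3.11.15, SciPy 1.17.1). Named blocks are the 10 with the most midpoints (ties by covered share), the 3 longest runs (ties by peaks held, both runs of an equal pair given), and the 3 highest and lowest by covered share and by ratio outside peaks. The rule, the members and the alternatives were chosen with earlier results of these data known. Alternatives covered the limit, the grid, the peaks, fragment placement and scaling. A gene annotation and sequence of mm9 were not used here.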

Additional observations from a re-analysis of the deposited data

How the results depend on the processing

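The ratio outside peaks kept its order, blocks above the bins next to them and those above all other bins, under all 10 alternatives. The number of blocks did not hold: it was 1853 with a minimum of 15 midpoints, 373 with 25, 176 with the 50% of the peaks that scored highest, and 4 with peaks within 1 kb joined, since each of these counts fewer or more peaks against its limit. The longest run was 12 bins with a minimum of 15, 5 with 25, 8 with the grid shifted by 50 kb, 3 with the higher-scoring peaks and 1 with joined peaks, against 6. The covered share was 28.8%, 47.5% (minimum of 25), 47.8% (higher-scoring peaks) and 39.4% (joined). The ratio inside peaks of blocks was 5.45 and 5.64 with minimums of 15 and 25, 6.10 with higher-scoring peaks, 4.60 with joined peaks, 4.87 when any overlap of 1 bp counted, 7.31 when scaled to fragments outside peaks and 5.58 weighted by reads. Outside peaks it was 1.51, 1.65, 2.09 (higher-scoring), 1.56 (joined), 1.66 (overlap) and 2.09 (scaled). In the bins next to blocks it was 1.19, 1.36, 1.27 (grid shifted by 50 kb), 1.64 (higher-scoring), 1.30 (overlap) and 1.70 (scaled). In all other bins it was 0.672, 0.744, 0.764 (joined), 0.828 (higher-scoring), 0.946 (scaled) and 0.715 (without 10 kb steps of extreme or no input). Input density was 1.10 times the median bin with joined peaks, which rests on 4 blocks. Fragments of 150 bp, added after seeing the data, moved none of these beyond its interval. Scaling to fragments outside peaks moved the ratio of all fragments of the 21 named blocks beyond its interval, by the same factor. Weighting by reads, leaving out steps of extreme or no input, and fragments of 150 bp moved it in none of them. Limits, peak sets and overlap rules cannot change that ratio, and the ratios of individual blocks inside and outside peaks were not recomputed. Depth limits the ratio outside peaks of individual blocks most where peaks leave little sequence. No paired analysis was possible because the groups have 1 library each.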

Other observations

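Chromosome X, which the choice of blocks left out, had 0 bins with 20 or more midpoints, and its fullest bin held 17. The mice were male, so X was present in a single copy. The part that depth plays in this count was not tested. Positions with 2 or more reads were 2.14% (2.11 to 2.17, exact binomial interval) of hMeDIP positions inside the peaks of blocks and 1.98% (1.96 to 1.99) inside peaks elsewhere on the autosomes. Outside peaks they were 1.26% (1.23 to 1.30) in blocks and 1.04% (1.03 to 1.04) elsewhere. In the input they were 0.254% (0.227 to 0.283) inside and 0.280% (0.257 to 0.305) outside the peaks of blocks. The part of repeated reads in the ratios was measured only by weighting positions by reads, which gave 5.58 inside and 1.58 outside the peaks of blocks.

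The block with the highest ratio inside peaks, chromosome 9, 115100001 to 115200000, was noticed after the values were seen. Its 21 narrow peaks, with a median width of 916 bp, had a ratio of 9.69 (7.24 to 13.2), from 652 hMeDIP and 49 input fragments.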
